A study of Mus musculus with 6 samples.

Results

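The transcripts described here encode the enzymes and carriers of mitochondrial and peroxisomal fatty acid oxidation in mouse liver. They are 29 genes chosen from knowledge of the pathway and not by their measured values, though with earlier results of these data known. They cover the carnitine shuttle, both beta-oxidation systems, the electron transfer proteins and enzymes of ketone body metabolism. A gene was found on the array through the RefSeq accession that the files give for each probe. All 29 genes were found, with 40 probes, among 22911 genes that the array's accessions named, and all 29 were among the 14171 genes tested. The livers came from 3 male mice with a liver-specific Elovl6 knockout (LKO) and 3 male control mice, titled Flox in the labels. Elovl6 elongates palmitate, and so supplies stearate and oleate. LKO and control mice alike received high-sucrose feed over 14 days, and food was withdrawn 4 hours before the livers were collected and flash frozen. Each array carried the Cy3-labelled RNA of 1 liver, so n = 3 mice per group throughout. The Cre driver, the age and the strain of the mice are not given in the sources used here.

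Fatty acids enter mitochondria as carnitine esters and are shortened there by a repeated cycle of dehydrogenation, hydration, a further dehydrogenation and thiolysis. Electrons from the first step pass through the electron transfer flavoprotein to the respiratory chain, and in liver much of the acetyl-CoA becomes ketone bodies. Peroxisomes run a parallel cycle, started by oxidases instead of dehydrogenases, on very long chain and branched substrates and on bile acid precursors. Double bonds in unsaturated fatty acids are removed by auxiliary isomerases and reductases, of which each organelle has its own. Many of these genes are textbook targets of PPAR alpha, a nuclear receptor that binds direct repeats of the hexamer AGGTCA.

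Promoter sequences from RefSeq were available for 24 of the 29 genes, in 26 entries, and the 250 bases before each start site were searched on both strands for that direct repeat, with 1 base between its copies of AGGTCA. No member entry held it with at most 1 mismatch over both copies, against 0.484% of all 32851 promoter entries. With at most 2 mismatches it was found for Echs1 and Etfa, in 2 of 26 member entries (7.69%) and in 3.24% of all entries. The hexamer AGGTCA alone was in 5 of 26 member entries (19.2%) and in 14.0% of all entries. Such matches describe the letters in these windows only. Both windows with a match are shown with the repeat in capitals, because they hold the closest matches to this repeat among the member windows searched. Echs1 encodes the short-chain enoyl-CoA hydratase and Etfa the alpha subunit of the electron transfer flavoprotein.
Echs1 (GRCm38.p6, chr7:140116422-140116671, minus strand): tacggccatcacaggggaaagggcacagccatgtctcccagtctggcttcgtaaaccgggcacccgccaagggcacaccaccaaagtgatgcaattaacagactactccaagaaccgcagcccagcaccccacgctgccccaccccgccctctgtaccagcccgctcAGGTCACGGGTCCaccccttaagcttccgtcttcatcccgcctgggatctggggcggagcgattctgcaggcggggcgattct
Etfa (GRCm38.p6, chr9:55512244-55512493, minus strand): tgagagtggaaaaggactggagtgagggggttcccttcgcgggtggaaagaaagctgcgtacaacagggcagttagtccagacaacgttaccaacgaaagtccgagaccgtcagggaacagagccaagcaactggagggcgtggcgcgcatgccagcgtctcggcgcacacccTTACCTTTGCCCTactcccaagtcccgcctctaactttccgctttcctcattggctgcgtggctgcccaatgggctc
The start sites of Hadha and Hadhb, which encode the alpha and beta subunits of the mitochondrial trifunctional protein, lie head to head with 272 bases between them, so 228 of the 250 bases searched are common to both genes. The window before Hadhb is shown because 1 stretch of sequence lies upstream of both subunits.
Hadhb (GRCm38.p6, chr5:30155003-30155252, plus strand): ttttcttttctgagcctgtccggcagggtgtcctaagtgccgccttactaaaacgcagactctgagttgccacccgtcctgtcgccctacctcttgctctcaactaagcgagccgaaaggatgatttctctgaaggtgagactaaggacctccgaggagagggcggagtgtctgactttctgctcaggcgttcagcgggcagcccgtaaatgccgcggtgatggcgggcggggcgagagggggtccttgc
Acaa1a and Acaa1b are paralogs that encode peroxisomal thiolases, and they are shown because their main probes ran in opposite directions in LKO livers. Their windows were 51.4% identical in a global alignment, against a median of 49.7% over the 275 other pairs of member promoters (range 42.4% to 56.2%).
Acaa1a (GRCm38.p6, chr9:119341044-119341293, plus strand): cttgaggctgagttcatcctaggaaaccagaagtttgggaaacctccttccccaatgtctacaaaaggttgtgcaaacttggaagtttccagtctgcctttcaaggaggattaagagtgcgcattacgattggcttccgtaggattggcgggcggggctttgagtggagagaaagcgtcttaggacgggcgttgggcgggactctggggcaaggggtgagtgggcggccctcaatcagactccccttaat
Acaa1b (GRCm38.p6, chr9:119157094-119157343, minus strand): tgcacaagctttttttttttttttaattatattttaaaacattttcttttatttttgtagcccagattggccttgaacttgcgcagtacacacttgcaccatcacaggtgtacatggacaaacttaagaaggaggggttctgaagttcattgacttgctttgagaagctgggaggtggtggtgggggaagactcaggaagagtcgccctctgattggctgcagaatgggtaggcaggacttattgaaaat

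All arrays lay on 1 slide, and between 52.1% and 56.6% of the 59305 spots of an array were well above background, with 0 saturated spots. The number of arrays limits the precision. Values are given as normalised signal, the processed signal divided by the array's 75th percentile. That percentile was 273, 265 and 274 in the LKO mice, against 298, 287 and 290 in the controls, and the groups did not overlap in it. Its part in the results was not tested beyond the other scalings tried. Elovl6, the deleted gene, had a normalised signal of 0.228, 0.334 and 0.364 in the LKO mice, against 21.3, 43.0 and 22.8 in the controls. It fell by 6.51 ± 0.30 on the log2 scale (SE, limma adjusted p = 0.00279), so every mouse matched its label. The position of this probe against the deleted exons was not checked. Hepatocyte markers ranged widely in signal. Alb, the brightest of the 8 listed, lay between 1247 and 1268 in LKO mice and between 1213 and 1278 in controls. Cps1, the dimmest of them, lay between 20.5 and 27.2 in LKO mice and between 19.6 and 23.0 in controls.

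Measured differences of fatty acid oxidation genes between LKO and control livers were small. None of the 29 passed the test over all genes at an adjusted p of 0.05 (limma, Benjamini-Hochberg), where 0.0141% of all genes tested did. At an unadjusted p under 0.05 there were 4 of 29 (13.8%), beside 11.2% of all genes tested. Of these, 3 were lower in LKO (Decr1, Hadh and Acat1), beside 5.6% of all genes, and 1 was higher (Acaa1a), beside 5.56%. The 3 LKO and 3 control values did not overlap for 5 of 29 (17.2%), beside 17.3% of all genes tested. This held for 4 genes lower in LKO, beside 9.21% of all genes, and for 1 higher, beside 8.11%. Both overall shares lay near those of the array as a whole. The values were lower in LKO for 21 of 29 genes (72.4%), against 49.2% of all genes tested, and the median log2 change was -0.09 over the members and 0.0031 over all genes tested. As the whole liver was measured, fewer cells of a type and less RNA per cell cannot be told apart. The log2 changes lay between -0.52 for Crat and 0.27 for Acaa1a, from the main probe of each gene with all 6 mice. The SE of the members' log2 changes had a median of 0.11, close to the 0.12 of all genes tested. Their 95% intervals reached as far as -1.13 for Crat and 0.52 for Acaa1a, so larger changes lay within them.

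**Figure D1:**
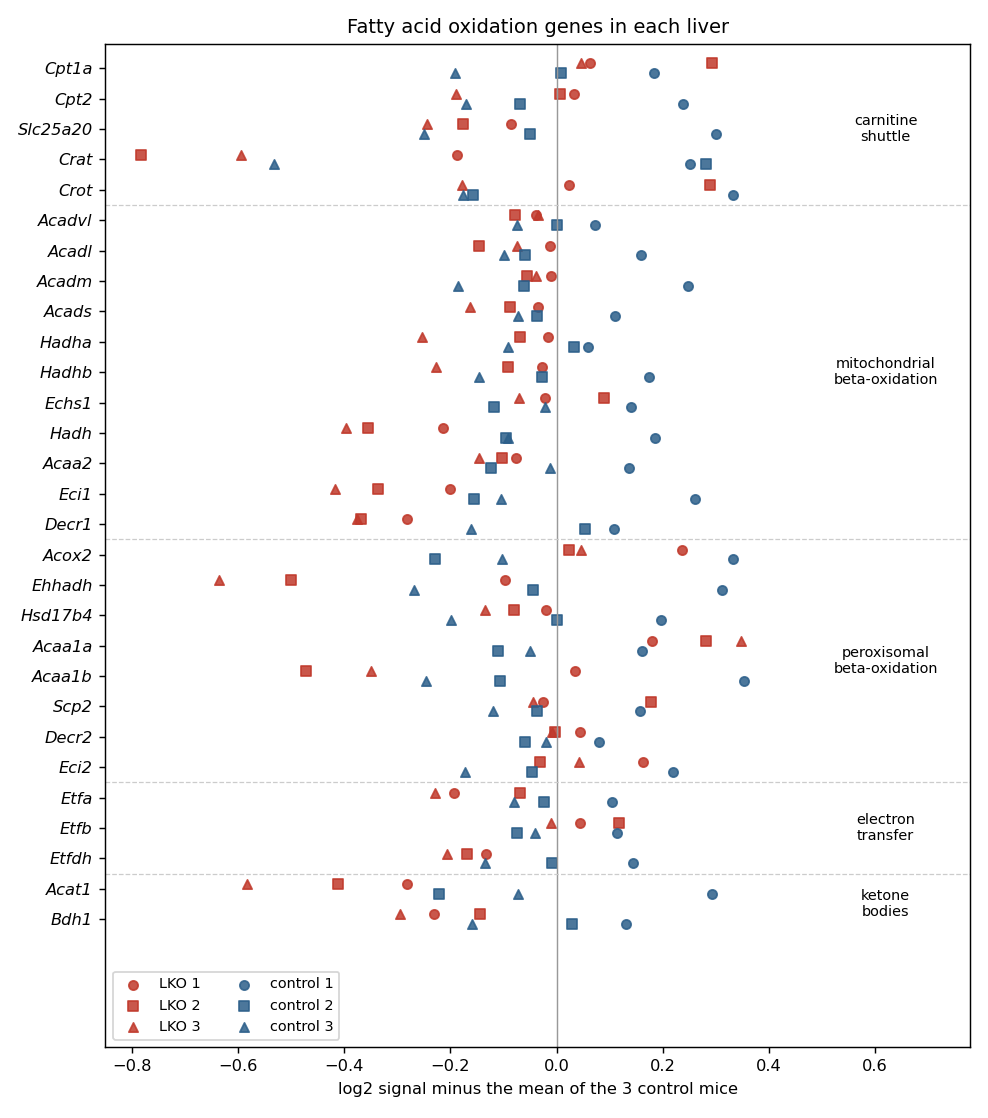
Log2 signal of each gene in each mouse minus the mean of the 3 control mice (horizontal axis), with LKO mice in red and controls in blue, genes grouped by role from top to bottom. Control 1 (blue circle) is the highest of the 6 mice for 24 of 29 genes, and the LKO values lie apart from the control values for Hadh, Eci1, Decr1, Acaa1a and Acat1.

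In the carnitine shuttle, values were higher in LKO for 2 of 5 genes and lower for 3, and 0 passed. Cpt1a, the outer membrane acyltransferase that controls entry of long-chain fatty acids, had a normalised signal of 32.0, 37.6 and 31.7 in the LKO mice, against 34.8, 30.8 and 26.8 in the controls. The groups overlapped, and the log2 change was 0.13 ± 0.13 (SE), with a 95% interval of -0.17 to 0.44, and between 0.039 (without control 3) and 0.23 (without control 1) with 1 mouse left out. Crat, which encodes carnitine acetyltransferase of mitochondria and peroxisomes, had 4.38, 2.90 and 3.30 in the LKO mice, against 5.93, 6.06 and 3.45 in the controls. LKO 1 lay above control 3, so the groups overlapped here too. Its log2 change of -0.52 ± 0.26 (SE, adjusted p = 0.511) was the largest of the members by size and the least precise, with an interval of -1.13 to 0.090. It lay between -0.38 (without control 2) and -0.79 (without control 3) with 1 mouse left out, and was -0.19 with the row of the slide as a covariate. A second, dimmer Crat probe gave -0.69. Slc25a20, the carrier that exchanges acylcarnitine for carnitine across the inner membrane, differed by -0.17, Cpt2, the inner membrane acyltransferase, by -0.051 and Crot, the peroxisomal octanoyltransferase, by 0.045 on the log2 scale. For Slc25a20 the value was -0.018 without control 1 and -0.29 without control 3.

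With all 6 mice, the 11 genes of the mitochondrial beta-oxidation cycle had lower values in LKO, as did 49.2% of all genes tested. Their median log2 change was -0.11, and without control 1 Acadl, Acadm and Echs1 turned to 0.0022, 0.089 and 0.069. The groups did not overlap for 3 of the 11, all lower in LKO (27.3%, beside 9.21% of all genes tested). Decr1, the dienoyl-CoA reductase that handles polyunsaturated fatty acids, had a normalised signal of 88.1, 82.9 and 82.6 in the LKO mice, against 115, 111 and 95.8 in the controls. Every LKO liver lay below every control liver. Its log2 change was -0.34 ± 0.10 (SE, adjusted p = 0.302), the smallest p of the members. Hadh, the short-chain hydroxyacyl-CoA dehydrogenase, had 20.4, 18.5 and 18.0 in the LKO mice, against 27.0, 22.2 and 22.2 in the controls. The groups lay apart, by a log2 change of -0.32 ± 0.11 (SE, adjusted p = 0.373). Eci1, the isomerase that moves a double bond into place for the cycle, had 35.9, 32.7 and 30.9 in the LKO mice, against 49.4, 37.0 and 38.4 in the controls. The gap between LKO 1 and control 2 was small, and the log2 change was -0.32 ± 0.13 (SE, adjusted p = 0.449).

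By their main probes, the other steps of the cycle differed by less. The acyl-CoA dehydrogenases, which start each round on substrates of different chain length, had log2 changes of -0.050 for Acadvl, -0.077 for Acadl, -0.035 for Acadm and -0.095 for Acads, with SE between 0.080 and 0.12. Hadha and Hadhb, the trifunctional protein subunits that have 1 upstream stretch in common, differed by -0.11 ± 0.10 and -0.12 ± 0.11 (SE). A second, dimmer Hadhb probe gave -0.29. In it every LKO mouse lay below every control, LKO 1 by a small margin. Echs1 differed by -0.0013 ± 0.10 and Acaa2, the thiolase that ends a round, by -0.11 ± 0.094 (SE). The dimmer Echs1 probe gave -0.19, also with every LKO mouse below every control. With the probes of a gene averaged, the log2 changes were -0.20 for Hadhb and -0.097 for Echs1. For the main probes, the 95% intervals of these 8 genes spanned 0 and reached down to at most -0.38. A decrease as large as that of Decr1 was thus inside the intervals of Hadha and Hadhb.

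Values were lower in LKO for 2 of 3 electron transfer genes and for both ketone body genes, and 0 of these passed. Etfb, the beta subunit of the electron transfer flavoprotein, had a normalised signal of 154, 162 and 148 in the LKO mice, against 162, 142 and 145 in the controls, and its log2 change was 0.050 ± 0.090 (SE). Etfdh, which passes those electrons to ubiquinone, had 41.0, 40.0 and 39.0 in the LKO mice, against 49.7, 44.7 and 40.9 in the controls. Only control 3 lay within the LKO range, and the log2 change was -0.17 ± 0.097 (SE, adjusted p = 0.577). The 3 probes of Etfa gave -0.16, -0.41 and -0.23, from its main probe and from its other 2, and in the other 2 every LKO mouse lay below every control.

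Acat1, the mitochondrial thiolase that joins or splits acetoacetyl-CoA, had a normalised signal of 12.3, 11.3 and 9.99 in the LKO mice, against 18.3, 12.8 and 14.2 in the controls. The groups did not overlap, though LKO 1 and control 2 were close, and the log2 change was -0.43 ± 0.15 (SE, adjusted p = 0.393). Bdh1, which interconverts acetoacetate and hydroxybutyrate, differed by -0.22 ± 0.10 (SE, adjusted p = 0.496), and its second probe gave -0.19.

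**Figure D2:**
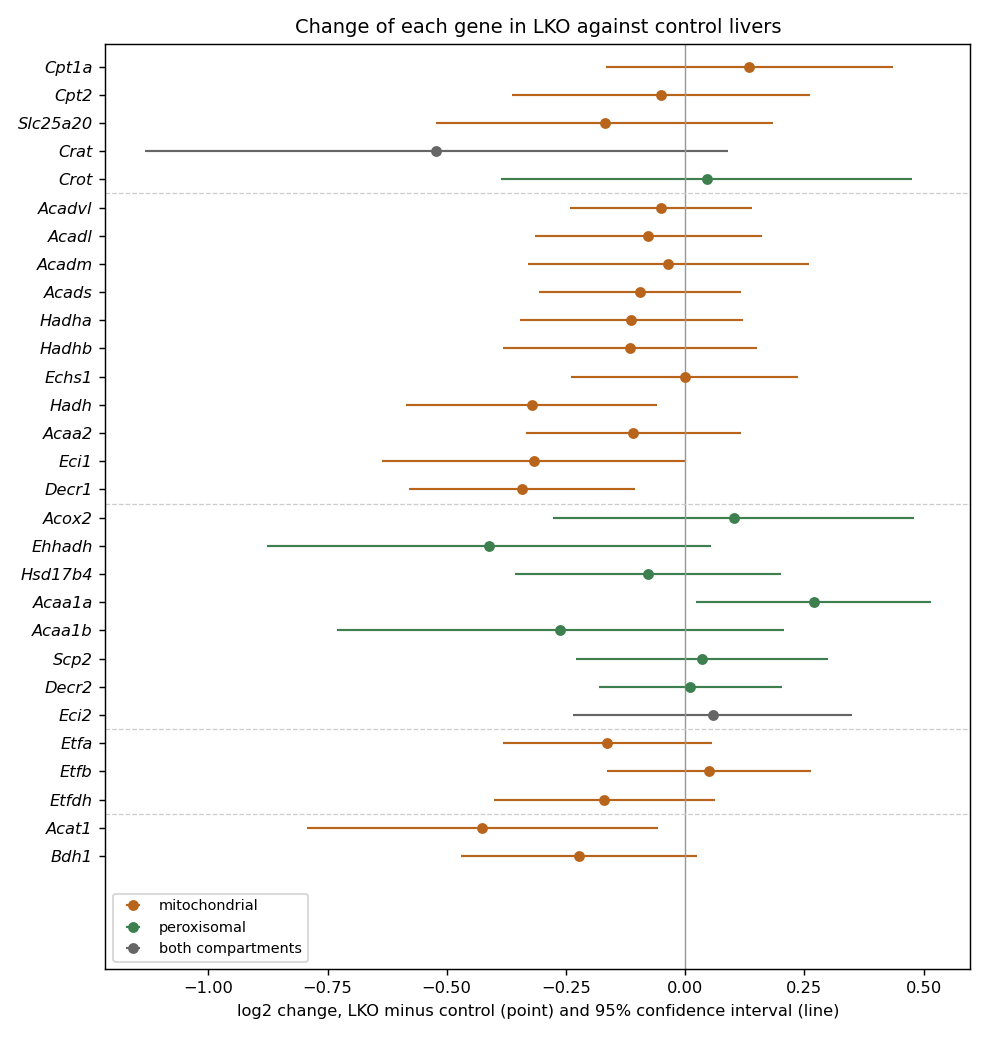
Log2 change of each gene, LKO minus control (horizontal axis), with its 95% confidence interval from limma, unadjusted for the number of genes, coloured by compartment. With all 6 mice the 11 genes of the mitochondrial cycle lie at or left of 0 (Echs1 at -0.0013), of which Acadl, Acadm and Echs1 turn above 0 without control 1, and the peroxisomal genes lie on both sides, from -0.41 for Ehhadh to 0.27 for Acaa1a.

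Peroxisomal beta-oxidation genes went both ways, with higher values in LKO for 5 of 8 and lower for 3. Ehhadh, the bifunctional hydratase and dehydrogenase, had a normalised signal of 9.38, 7.09 and 6.45 in the LKO mice, against 12.5, 9.73 and 8.32 in the controls. LKO 1 lay above control 3, and the log2 change was -0.41 ± 0.19 (SE, adjusted p = 0.499). It was -0.26 without control 1 and -0.097 with the slide row as a covariate. Hsd17b4, the second bifunctional enzyme, which takes branched and bile acid substrates, differed by -0.078 ± 0.12 (SE). Acox2, the oxidase for bile acid precursors and branched chains, differed by 0.10 ± 0.16 (SE), and its dimmer probe by -0.026. Scp2, whose gene encodes a thiolase and a sterol carrier, differed by 0.036 ± 0.11 (SE).

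The thiolase paralogs depended on the probe. Acaa1a had a normalised signal of 95.3, 102 and 107 in the LKO mice, against 94.1, 77.97 and 81.3 in the controls, by its brighter probe. Every LKO mouse lay above every control, LKO 1 by a small margin, and the log2 change was 0.27 ± 0.10 (SE, adjusted p = 0.420). The dimmer Acaa1a probe gave 15.9, 13.2 and 15.1 in the LKO mice, against 20.8, 15.3 and 13.8 in the controls, a log2 change of -0.16. It ran the other way and its groups overlapped. Acaa1b had 44.7, 31.5 and 34.2 in the LKO mice, against 55.7, 40.5 and 36.8 in the controls, with a log2 change of -0.26 ± 0.20 (SE, adjusted p = 0.669). Without control 1 the Acaa1b value was -0.086, without LKO 1 it was -0.41, and with the slide row it was 0.035. In the dimmer Acaa1a probe and the Acaa1b probe alike, LKO 1 was the highest LKO mouse and control 1 the highest of all. The same held for Decr1, Hadh, Eci1 and Acat1, among others, and control 1 was the highest mouse for 24 of 29 members. This order is therefore not particular to the thiolase probes and does not tell which paralog they measured. The transcripts of these paralogs are similar, so which of them each probe measured is uncertain. With the probes of a gene averaged, the log2 change of Acaa1a was 0.056.

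**Figure D3:**
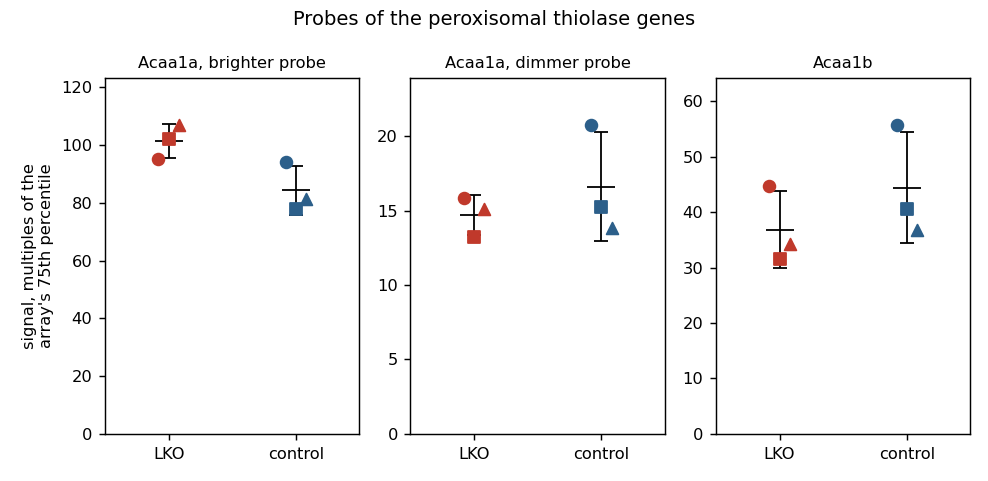
Normalised signal (multiples of the array's 75th percentile, axes from 0) of 3 probes of the peroxisomal thiolase genes, with LKO mice in red on the left of each panel and controls in blue on the right, circle, square and triangle for mouse 1, 2 and 3, and mean ± SD in black. The brighter Acaa1a probe lies higher in LKO mice, and the dimmer Acaa1a probe and the Acaa1b probe have lower means in LKO mice with overlapping values.

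The auxiliary enzymes of unsaturated fatty acids exist in both organelles. The mitochondrial forms Decr1 and Eci1 had log2 changes of -0.34 and -0.32, with 95% intervals of -0.58 to -0.11 and -0.64 to 0.0014. Decr2, the peroxisomal reductase, differed by 0.011, with an interval of -0.18 to 0.20. Eci2, an isomerase found in both organelles, differed by 0.058, with an interval of -0.23 to 0.35, and its second probe by 0.0076. Not every auxiliary enzyme other than Decr1 and Eci1 was flat. Ech1, a dienoyl-CoA isomerase listed here with the other peroxisomal genes, differed by -0.23, with an interval of -0.47 to 0.0033. Its place in mitochondria or peroxisomes was not checked, so its value is set against neither form. The difference between the forms was not tested.

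By compartment, values were lower in LKO for 17 of 19 mitochondrial genes, with a median log2 change of -0.11, and for 3 of 8 peroxisomal genes, with a median of 0.024. Crat and Eci2 belong to both and are in neither count. At an unadjusted p under 0.05 there were 3 mitochondrial genes, all lower (15.8%, beside 5.6% of all genes tested), and 1 peroxisomal gene, higher (12.5%, beside 5.56%). The difference between the compartments was not tested. Each mouse's mean over a compartment, relative to the control mean, shows the spread behind these medians. The mitochondrial mean was -0.091, -0.11 and -0.21 in LKO 1, 2 and 3, against 0.17, -0.053 and -0.11 in controls 1, 2 and 3. The peroxisomal mean was 0.047, -0.035 and -0.12 in the LKO mice, against 0.24, -0.093 and -0.15 in the controls. For both compartments the groups overlapped, and the SD between controls, 0.15 and 0.21, exceeded the difference between the group means, -0.14 and -0.036. The sign of the peroxisomal median depended on the setting, being -0.053 with quantile normalization, -0.016 with median scaling, -0.0034 with normexp, and between -0.056 (without LKO 2) and 0.083 (without control 1) when a mouse was left out, while the mitochondrial median lay between -0.16 and -0.039 over all settings tried.

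**Figure D4:**
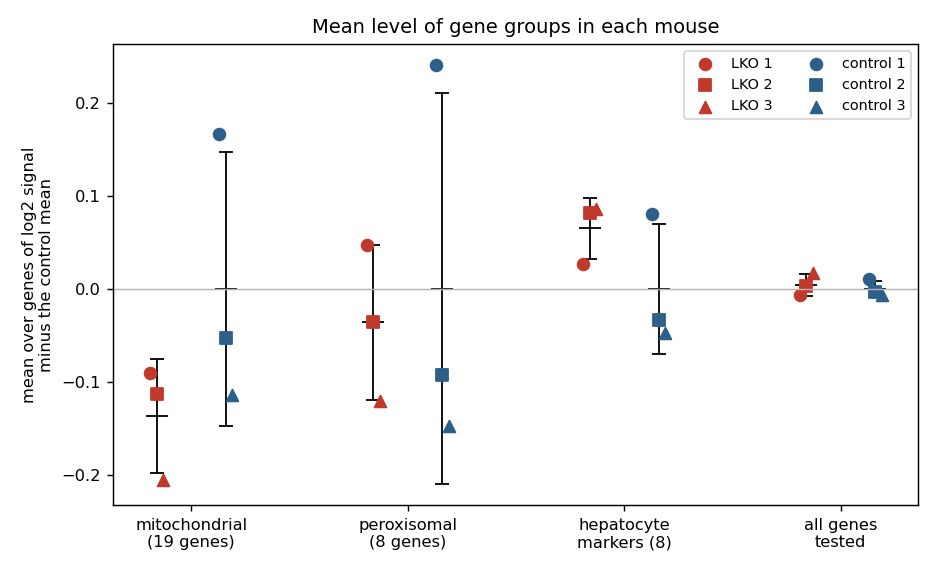
Mean over the genes of a group of log2 signal minus the control mean (vertical axis), for each LKO mouse (red, left) and each control (blue, right), with mean ± SD in black. Control 1 stands above the other mice for mitochondrial and peroxisomal genes, at 0.17 and 0.24, while the mean over all genes tested stays within 0.017 of 0 in every mouse.

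The difference moved with the mouse left out, and most with control 1. Control 1 was the highest of the 6 mice for 24 of 29 members (82.8%) and for 24.4% of all genes tested, and all 29 lay above their control mean in it. In control 3 all 29 lay below their control mean. LKO 3 was the lowest mouse for 14 of 29 members (48.3%) and for 19% of all genes tested. Without control 1, values were lower in LKO for 16 of 29 members, the median log2 change over members was -0.018, and the medians were -0.040 for mitochondrial and 0.083 for peroxisomal genes. Without control 3 the difference grew, with lower values for 24 of 29 members and a median of -0.14. Without LKO 3 it shrank, with lower values for 19 of 29 and a median of -0.060. For Decr1, Hadh, Eci1 and Acat1 the log2 changes without control 1 were -0.29, -0.23, -0.19 and -0.28. For Etfdh, at -0.17 with all mice, it was -0.098. The groups of Decr1, Hadh, Eci1 and Acat1 lay apart with all 6 mice, so leaving out control 1 could not make them overlap. On the array of control 1 the 75th percentile of the signal, 298, was the highest of the 6 and the share of spots well above background, 52.1%, the lowest. Their part in the result was not tested. On the slide, LKO 1 and the 3 controls lay in the same row, and LKO 2 and 3 in the other row. With the slide row as a covariate, a fit that sets only LKO 1 against the controls, the median log2 change was -0.026 over members, -0.039 over mitochondrial and 0.029 over peroxisomal genes.

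**Figure D5:**
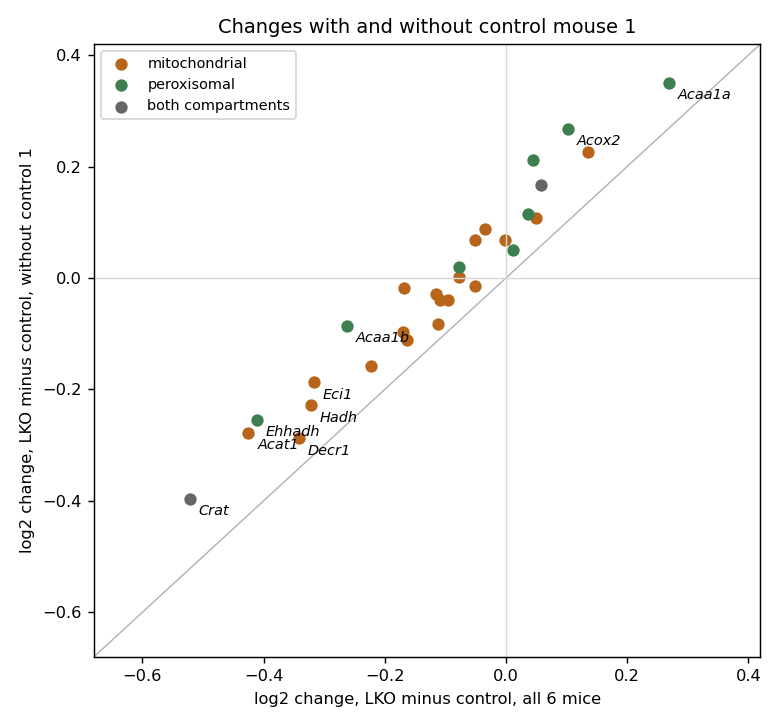
Log2 change of each gene, LKO minus control, with all 6 mice (horizontal axis) and without control 1 (vertical axis), coloured by compartment, with the line of equal values in grey. Every gene lies above the line, which follows from control 1 lying above the control mean in each. Decr1, Hadh, Acat1, Ehhadh, Eci1 and Crat are among the 16 genes below 0 on both axes.

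Other genes of these pathways, from lists written without regard to their direction but with earlier results known, gave a similar range. Of 18 tested genes in other mitochondrial oxidation and ketone steps, 14 had lower values in LKO (median log2 change -0.076), and none passed the test. Acad8, a dehydrogenase of valine breakdown, had the smallest p (log2 change -0.22 ± 0.087, SE, adjusted p = 0.427), followed by the lower values of Pcca at -0.14 and Mcee at -0.14, both of propionate breakdown. On the higher side, Nudt8 was at 0.20, Oxct1, which activates acetoacetate outside the liver, at 0.13 and Slc22a5, the carnitine transporter of the plasma membrane, at 0.057.

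Of 18 tested genes in other peroxisomal oxidation steps, 11 had lower values in LKO (median log2 change -0.021), and none passed the test. Abcd3, an abundant ABC transporter of the peroxisomal membrane, had a normalised signal of 99.97, 74.4 and 74.7 in the LKO mice, against 113, 137 and 109 in the controls. Every LKO mouse lay below every control, and the log2 change was -0.54 ± 0.15 (SE, adjusted p = 0.300). Abcd2, a related transporter, had a dim probe and differed by -0.63 ± 0.18 (SE, adjusted p = 0.297). Ech1, a dienoyl-CoA isomerase of unsaturated fatty acids, differed by -0.23 ± 0.099 (SE). On the higher side, Amacr, the racemase for branched chains and bile acid precursors, was at 0.17, Nudt7 at 0.20 and Phyh, which starts phytanate breakdown, at 0.16.

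Of 16 tested genes of peroxisome biogenesis, 11 had lower values in LKO (median log2 change -0.078), and none passed the test. Pex11a, which acts in peroxisome division, differed by -0.35 ± 0.17, Pex19, a receptor for membrane proteins, by -0.28 ± 0.12 and Pex7, an import receptor, by -0.19 ± 0.083 (SE). Pex26 differed by 0.21 ± 0.091 (SE), Pex11g by 0.16 and Pex6 by 0.072. As with the members, control 1 had the highest mean of the 6 mice in each of the 3 lists, at 0.10, 0.11 and 0.092 relative to the control mean.

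Markers of other cells were measured beside these genes. All 4 tested neutrophil markers of 6 listed had higher values in LKO, with a list mean of 0.71, 1.63 and 2.20 in LKO 1, 2 and 3, against -0.37, 0.26 and 0.11 in the controls, and a summed normalised signal of 4.02 to 17.0 in LKO mice and 2.02 to 2.91 in controls. Of the 4, 3 had an unadjusted p under 0.05 (75%, all higher, beside 5.56% of all genes tested) and 0 passed. Ly6g and Ngp, which help to define the cell type, were not tested. For Kupffer cells and macrophages, 8 of 8 markers were higher in LKO, the summed signal being 102 to 122 in LKO mice and 82.5 to 113 in controls. LKO 3, the lowest mouse for 14 of 29 members, had the highest mean of both lists, and the part of these cells in the result was not tested. All 4 tested erythroid markers of 5 listed were higher in LKO (median log2 change 0.335), with a summed signal of 499.5, 399 and 309 in LKO 1, 2 and 3, against 280, 310.5 and 394 in the controls, so the groups overlapped. Their part in the result was not tested either. Control 3, in which all members were below the control mean, had the highest signals of 2 muscle genes, Tnni2 at 4.91 and Tnnt3 at 3.33, against 0.171 to 0.256 and 0.401 to 0.525 in the other mice. The other 3 of 5 muscle markers were not tested, and the part of muscle tissue in the result was not tested. Hepatocyte markers, 8 of 8 tested, had a median log2 change of 0.063, and their list mean lay between 0.027 and 0.086 in LKO mice and between -0.047 and 0.080 in controls.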

How the data were processed

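Liver RNA of 3 LKO and 3 control mice was measured on one-colour Agilent arrays. Per the submitters' processing notes, Agilent Feature Extraction 11.5.1.1 made the files. Per the file headers, the deposited processed signal is a background-corrected intensity, median foreground and background are uncorrected intensities, and the quality flags are other values. In the authors' deposited table, each array's intensity is the processed signal multiplied by a constant of its own (2.08 to 2.48). The array headers and the RefSeq table name different builds, so no gene coordinates are given besides those of the RefSeq promoters. Of 56605 probes, 32994 matched a gene symbol by accession, 0 several and 23611 none.

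Processed signals were divided by the 75th percentile of their array (265 to 298) and taken as log2, without control and outlier spots. A gene's probe was the one with the highest mean. Testing required that probe to pass the background flag on the 3 arrays of at least 1 group. Groups were compared with limma 3.58.1 in R 4.3.3, two-sided, Benjamini-Hochberg over all 14171 genes, threshold 0.05. The code was tested on simulated data with 200 genes changed by 2, 4 or 8 fold, where 76.9% of 2-fold changes passed. In the measured data 2 genes passed, so that setting differs. The 76.9% does not give the share of 2-fold changes that could be detected here. Smaller changes, such as those of the members, were not simulated. Of the members, 10 had several probes, and 2 of these, Acaa1a and Acox2, had probes that differed in direction. The members, lists, named-gene rule and tests were chosen with earlier results of these data known. Every mouse's values are given for members whose groups do not overlap, for the largest increase and decrease in each role group, and for Cpt1a, Ehhadh, Acaa1a and Acaa1b, with Abcd3, Tnni2 and Tnnt3 chosen after their values were seen. From other lists, up to 3 genes per direction with the smallest p are named. The planned normexp alternative used median instead of mean foreground, which the files hold. Same-numbered mice had r between -0.070 and 0.045 in their deviations, against -0.11 to 0.16 for differently numbered mice. With 3 mice per group this cannot tell whether the numbers pair them. The labels name no pairing, so the main fit had none. Nothing says whether RNA was extracted in batches.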

Additional observations from a re-analysis of the deposited data

How the results depend on the processing

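Over 16 alternatives, 0 of 29 members passed in any, and between 16 and 24 had lower values in LKO. The median log2 change over members lay between -0.14 and -0.018 and was below 0 in each. The count of all genes past the threshold was 2, against 16 with normexp, 13 with trend and robust eBayes, 1 with dim probes kept, 1 with probes above background on all 6 arrays and 1 with the slide row, and it went from 1 to 9 when a mouse was left out (9 without LKO replicate 1). With the replicate number as a block, a pairing that the labels do not give, it was 3, and 0 members passed. At an unadjusted p under 0.05 there were 4 members and 1582 of all genes, against 8 and 1700 with normexp, 0 and 715 with the slide row, 7 and 1902 without LKO replicate 1, 1 and 1152 without LKO replicate 2, 1 and 1197 without LKO replicate 3, and 2 and 1601 without control replicate 1. Of the log2 changes of Elovl6 and the members under the alternatives, 453 kept direction and side of the threshold. The other 27 turned round, and the cause was not tested. Log2 changes were -0.014 for Decr2 with normexp; 0.017 for Echs1, -0.11 for Scp2 and -0.032 for Decr2 with quantile normalization; -0.0036 for Scp2 and -0.029 for Decr2 with median scaling; and 0.0025 for Echs1 with the authors' value table. With the slide row they were 0.032 for Cpt2, 0.035 for Acaa1b and -0.026 for Scp2. With 1 mouse left out the ranges were -0.14 to 0.069 for Cpt2, -0.13 to 0.0022 for Acadl, -0.13 to 0.089 for Acadm, -0.060 to 0.069 for Echs1, -0.18 to 0.020 for Hsd17b4, -0.077 to 0.21 for Crot, -0.013 to 0.27 for Acox2, -0.019 to 0.051 for Decr2, -0.035 to 0.11 for Scp2 and -0.028 to 0.17 for Eci2. Counting Crat and Eci2 in either compartment left its median at -0.11 or 0.024. This had to follow, since Crat lay below and Eci2 above both medians. All 40 member probes were well above background on every array.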
